A study of Mus musculus with 15 samples.

Results

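The transcripts described here are those of the heat shock transcription factor gene Hsf1 and of 9 chaperone genes, Hspa1a, Hspa1b, Hspa8, Hsph1, Hsp90aa1, Dnaja1, Dnajb1, Hspb1 and Hspe1. They were chosen by name, as 10 of the 37991 genes in the count table, and 9 of the 10 passed the filter on low counts and were among the 14258 genes tested. RNA was sequenced from whole liver homogenates of 15 female C57BL/6 mice in 3 groups of 5. Young WT mice were wild type and 90 days old, old WT mice were wild type and 600 days old, and old KO mice were 600 days old and carried the S6K1 KO in every tissue. WT and KO animals came from heterozygous breeding, no group was treated, and each library was 1 animal. There was no young KO group, so age was compared in WT mice alone and genotype at 600 days alone. S6K1 is the ribosomal S6 kinase encoded by Rps6kb1, and it acts downstream of mTORC1 in the control of growth and protein synthesis.

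HSF1 is held inactive in unstressed cells. When unfolded proteins accumulate it forms trimers, binds heat shock elements (inverted repeats of the letters GAA) in promoters and drives the transcription of chaperone genes. HSP70 proteins (Hspa1a, Hspa1b and the constitutive Hspa8) bind unfolded stretches and use ATP to release them, J-proteins (Dnaja1, Dnajb1) deliver clients and start ATP hydrolysis, HSP110 (Hsph1) exchanges the nucleotide, and HSP90 (Hsp90aa1) completes the folding of kinases and steroid receptors. Hspb1 encodes a small heat shock protein that holds unfolded clients without using ATP. Hspe1 encodes HSP10, the lid of the HSP60 chaperonin, which works in the mitochondrial matrix and not in the cytosol.

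Promoter stretches are shown because HSF1 acts through these letters. RefSeq windows (GRCm38.p6, the 250 bases before each annotated start) were in hand for 7 of the 10 genes. The window letters were searched on both strands for GAANNTTC and TTCNNGAA, here called pairs, and for the triples GAANNTTCNNGAA and TTCNNGAANNTTC, each of which contains 2 overlapping pairs. Capitals mark every base of a match, and each sequence reads 5′ to 3′ on the strand of its gene.
Hspa1a and Hspa1b: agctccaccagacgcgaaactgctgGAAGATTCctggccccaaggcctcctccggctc
Hsph1: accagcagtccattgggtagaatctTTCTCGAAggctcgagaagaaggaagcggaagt
Dnaja1: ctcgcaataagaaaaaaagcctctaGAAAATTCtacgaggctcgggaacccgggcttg
Hspb1: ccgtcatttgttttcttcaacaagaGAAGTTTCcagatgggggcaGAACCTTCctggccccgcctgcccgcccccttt
Hspe1: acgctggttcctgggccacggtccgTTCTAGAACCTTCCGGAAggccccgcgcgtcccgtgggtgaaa
The stretches lie at chr17:34972228-34972285 (minus strand, Hspa1a), chr17:34959310-34959367 (minus strand, Hspa1b), chr5:149636337-149636394 (minus strand, Hsph1), chr4:40722319-40722376 (plus strand, Dnaja1), chr5:135887777-135887854 (plus strand, Hspb1) and chr1:55088034-55088101 (plus strand, Hspe1).

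A pair was present in 6 of the 7 genes and in 14.5% of 27025 genes in the RefSeq table. By window, 6.69% of 32851 promoter windows held GAANNTTC, 7.17% held TTCNNGAA and 12.8% held either. In Hspa1a and Hspa1b the pair lay 104 to 97 bases before the start, and their windows were identical at 247 of 250 bases (98.8%). The pair of Hsph1 lay 33 to 26 bases before the start nearer to it and 54 to 47 before another annotated start, and that of Dnaja1 lay 124 to 117 bases before its start. Hspb1 held a pair 117 to 110 and another 97 to 90 bases before the start. The match in Hspe1 was a triple in each order, overlapping, from 89 to 72 bases before the start, and a triple was present in 0.466% of windows. The same stretch, read on the other strand, lay 144 to 127 bases before a start of Hspd1, the HSP60 gene that is the neighbor of Hspe1. Dnajb1 held no pair in either of its 2 windows and Dnaja1 held it in 1 of 3. A match is a description of the letters, and binding was not measured.

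Some of these genes cannot be counted cleanly with reads of 50 bases. On NCBIM37 (mm9), Hspa1b (ENSMUSG00000090877, chr17:35093381-35096183, minus strand) and Hspa1a (ENSMUSG00000091971, chr17:35106144-35109069, minus strand) lie 9960 bases apart. Of the 50-base windows in exons of Hspa1a, 59.4% also occurred in Hspa1b, and 39.0% occurred once in the genome. Windows that occurred once made up 37.7% for Hspa1b, 43.8% for Hsp90aa1, 44.4% for Hspb1, 62.7% for Hspa8, 83.0% for Hspe1 and 85.9% for Dnaja1, against 99.3% for Dnajb1 and 100% for Hsf1 and Hsph1. How reads with several matches were counted is not given in the sources used here, so the levels of the genes with low shares are uncertain. Hspe1 (ENSMUSG00000073676, chr1:55144976-55148151, plus strand) overlaps Hspd1 on the opposite strand by 112 bases, and Dnaja1 (ENSMUSG00000028410, chr4:40669183-40684182, plus strand) overlaps other annotated genes. Hspa1a, with an exon length of 2926 bases, overlaps the protein-coding gene Gm20481 on the opposite strand by 2213 bases. The strand setting of the counting was not stated, and what these overlaps did to the counts was not tested.

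Library totals ranged from 21801754 counts (young WT 6) to 38065359 (young WT 1), and old KO 6 (21984658) was nearly as shallow as young WT 6. The deleted gene Rps6kb1 averaged 38.4 ± 4.21 CPM in old WT and 17.0 ± 2.23 CPM in old KO (SD, n = 5 each), with no overlap, a log2 fold change of -1.17 and an edgeR adjusted p of 8.54e-06. CPM are counts divided by the TMM-scaled library size and multiplied by 1000000. All 12 hepatocyte markers were among the genes tested, and their summed level in CPM was between 104000 and 159500 for young WT livers, between 112400 and 163300 for old WT livers and between 135600 and 173000 for old KO livers. Monocyte and macrophage markers summed to between 287 and 673.8 CPM for old WT livers and between 168 and 267.5 CPM for old KO livers. Of the 15, 6 were called lower in old KO than in old WT, beside 0.533% of all tested genes called either way (60 of 14258 lower). T and B cell markers summed to at most 11.04 CPM in a young WT liver and to at least 16.0 CPM in every old one. With age 5 of the 13 were called higher, beside 18.8% of all tested genes called either way (1415 of 14258 higher). Jchain alone averaged 0.731 CPM in young WT, 12.4 in old WT and 26.6 in old KO. For genotype 11 of the 13 were below 0 and 2 above, with 0 called. In whole liver, fewer cells of a type and less RNA per cell cannot be told apart, and the part of cell composition in the results below was not tested.

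Levels were compared between genes per kilobase of exon. Hspa8 was highest in each group, at 107 ± 24.7 CPM per kb in young WT, 99.7 ± 19.6 in old WT and 129 ± 30.6 in old KO (SD, n = 5). Hspe1 followed at 61.6 ± 8.27, 45.5 ± 5.09 and 46.4 ± 2.32 CPM per kb in the same order. Next came Hsp90aa1 (33.3, 27.2 and 29.4 CPM per kb) and Dnaja1 (18.8, 17.9 and 22.0 CPM per kb), which in old KO differed by less than the SD of Hsp90aa1. The order of these genes depends on the length used, that of all annotated exons merged (3.931 kb for Hsp90aa1 and 8.629 kb for Dnaja1). Before division by length Dnaja1 was the higher in each group, at 162.5, 154.2 and 189.8 CPM against 131, 107 and 115.5 CPM. Dnajb1, Hsph1, Hspb1 and Hsf1 stood between 5.60 and 11.4 CPM per kb, and in old WT and old KO each neighboring pair of these differed by less than the larger SD. Hspa1b was far below the rest of the tested genes, at 0.631 ± 0.571, 0.594 ± 0.304 and 1.58 ± 1.12 CPM per kb. Hspa1a was assigned very few counts, 7 in all 5 young WT livers together, 18 in old WT and 12 in old KO. Any 1 library held between 0 and 6 counts of it. Hspa1a was therefore not among the genes tested, and no fold is given for it. The part of the overlap with Gm20481 and of the windows shared with Hspa1b in these low counts was not tested.

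**Figure D1:**
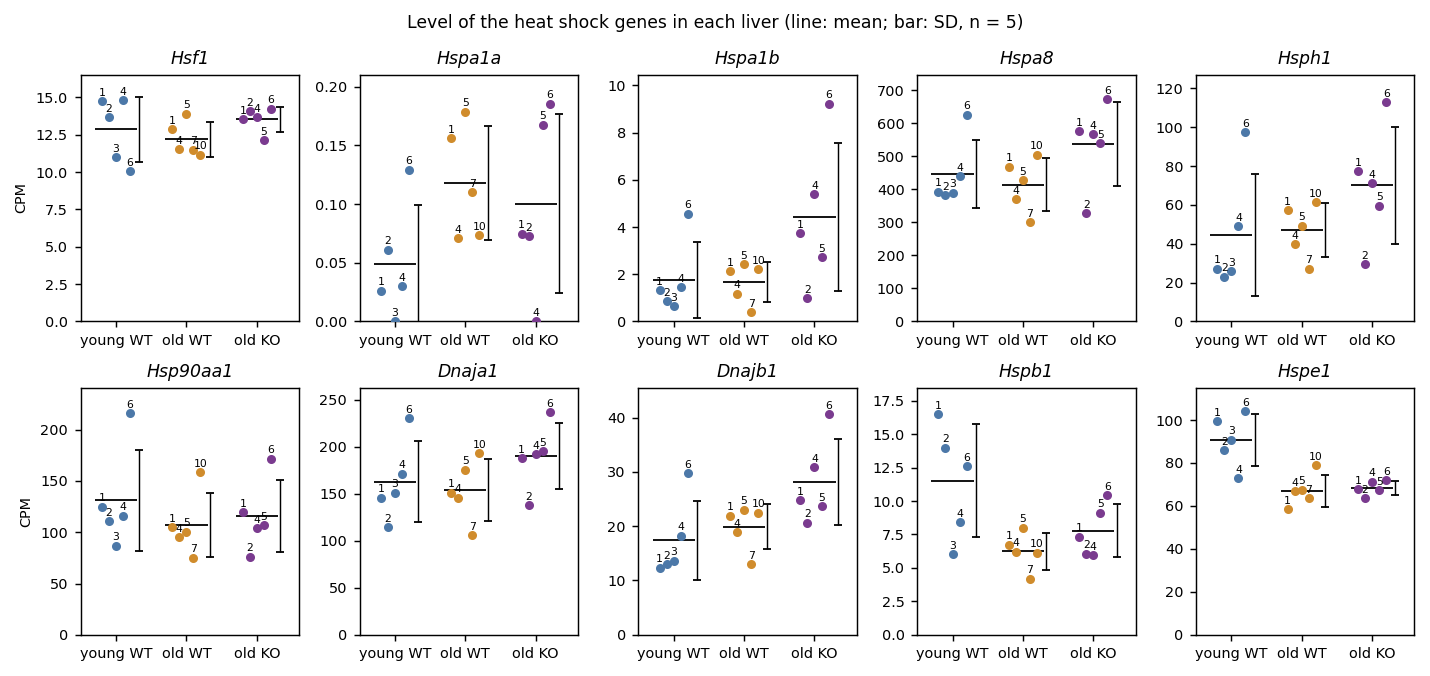
Level of each of the 10 genes in CPM (vertical axes, linear, from 0) in the 5 young WT, 5 old WT and 5 old KO livers, with the replicate number beside each point, a line at the mean and a bar of 1 SD. Hspb1 and Hspe1 are lower in old WT than in most young WT livers, and young WT 6 and old KO 6 are at the top of their groups for most of the chaperone genes.

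The comparison of old WT with young WT asked which of these transcripts changed with age. Hspb1 and Hspe1 fell, and the other 7 tested genes did not pass the test. The 2 of 9 called stand beside 18.8% of all tested genes called in this comparison, and the median log2 fold change was -0.08 over the 9 genes and 0.01 over all genes tested. In direction, 2 of the 9 were above 0 and 7 below, against 51.2% of all tested genes above 0.

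Hspe1, the HSP10 co-chaperonin, was at 99.5, 86.0, 90.9, 73.0 and 104 CPM in young WT 1, 2, 3, 4 and 6. In old WT 1, 4, 5, 7 and 10 it was at 58.5, 66.8, 67.5, 63.6 and 78.9 CPM. Only old WT 10 reached into the young range, above young WT 4 alone. The fall was 0.44 on the log2 scale, from a mean of 90.7 ± 12.2 to 67.1 ± 7.50 CPM (SD, n = 5 each), a fold change of 0.739.
The log2 fold change had an SE of 0.0956 and an edgeR adjusted p of 0.00600, and the exact 2-sided permutation test gave p = 0.0159. Hspd1, which encodes the HSP60 partner of HSP10, averaged 359 ± 90.0 CPM in young WT and 299 ± 34.5 in old WT, a log2 difference of -0.26 that did not pass (edgeR adjusted p = 0.169).

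Hspb1 was at 16.5, 14.0, 6.03, 8.44 and 12.6 CPM in the young WT livers, in the same order, and at 6.75, 6.22, 7.99, 4.18 and 6.14 CPM in the old WT livers. The groups overlapped: young WT 3 was as low as the old livers, and the other 4 young livers were above all 5 old ones. The mean went from 11.5 ± 4.23 to 6.26 ± 1.38 CPM (SD, n = 5 each). Its log2 fold change was -0.88 with an SE of 0.247 and an edgeR adjusted p of 0.0220, and the exact 2-sided permutation test gave p = 0.0476. The call rests on the young livers with the highest levels: it was lost without young WT 1 (-0.71, edgeR adjusted p = 0.0690) and without young WT 2 (-0.80, edgeR adjusted p = 0.0553).

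Hsf1 itself was close to level with age. Its values were 14.7, 13.7, 10.99, 14.8 and 10.05 CPM in young WT and 12.9, 11.5, 13.9, 11.5 and 11.2 CPM in old WT, and the old values all lay inside the young range. The log2 difference was -0.08 with a 95% interval of -0.31 to 0.16 (edgeR adjusted p = 0.660). Hsf2, a second heat shock factor, gave 0.05 (edgeR adjusted p = 0.856).

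For the HSP70, HSP110, HSP90 and J-protein genes the intervals of the age difference were wide. Hspa8 gave a log2 difference of -0.11 with a 95% interval of -0.50 to 0.29, and Dnaja1 gave -0.07 with an interval of -0.47 to 0.32. Hsp90aa1 gave -0.29 with an interval of -0.82 to 0.23. Its paralog Hsp90ab1, which encodes the constitutive cytosolic HSP90, gave -0.11 (edgeR adjusted p = 0.643). Hsph1 gave 0.08 with an interval of -0.74 to 0.91, and Dnajb1 gave 0.20 with an interval of -0.31 to 0.71. The widest was Hspa1b, at -0.04 with an interval of -1.30 to 1.22. A change of 2-fold in either direction therefore lies inside the interval for Hspa1b and outside it for Hspa8, Dnaja1, Hsp90aa1, Hsph1 and Dnajb1.

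The comparison of old KO with old WT asked what the loss of S6K1 changed at 600 days. None of the 9 tested genes passed the edgeR test, 1 of 9 had an unadjusted p under 0.05, and DESeq2 and limma voom also called 0 of 9. Of all tested genes, 0.533% were called. The fitted difference was above 0 for 9 of 9 genes, against 50.2% of all tested genes, with a median of 0.31 against 0.00080. These genes vary together between animals, as described below, so the 9 directions are not 9 separate observations. In the same comparison 10 of 12 hepatocyte markers were above 0, with a median of 0.26 and 0 called. Of the 15 monocyte and macrophage markers 0 were above 0, with a median of -1.14. The part of cell composition in these directions was not tested.

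Hspa1b, the stress-inducible HSP70, had the widest difference. It was at 2.12, 1.17, 2.42, 0.403 and 2.21 CPM in old WT 1, 4, 5, 7 and 10 and at 3.74, 0.981, 5.40, 2.73 and 9.24 CPM in old KO 1, 2, 4, 5 and 6. All old KO livers but old KO 2 were above all old WT livers. The log2 fold change was 1.39 with a 95% interval of 0.16 to 2.61, the edgeR adjusted p was 0.349 and the exact 2-sided permutation test gave p = 0.103. The old WT libraries held 11 to 81 counts of it and the old KO libraries 27 to 199.

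Dnajb1, the J-protein that partners inducible HSP70, was at 21.9, 18.9, 23.0, 13.1 and 22.5 CPM in old WT and at 24.8, 20.6, 30.9, 23.7 and 40.6 CPM in old KO. Again 4 of the 5 old KO livers lay above the whole old WT range and old KO 2 lay inside it. The log2 fold change was 0.50 with a 95% interval of -0.01 to 1.01 (edgeR adjusted p = 0.443, exact 2-sided permutation p = 0.0635).

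Hspa8, the constitutive HSP70, was at 468.5, 370, 428, 300 and 505 CPM in old WT and at 576, 328, 566, 539 and 673 CPM in old KO. The same pattern held, with old KO 2 inside the old WT range and the other 4 above it. The log2 fold change was 0.37 with a 95% interval of -0.02 to 0.77 (edgeR adjusted p = 0.465). Hsph1, the HSP110 exchange factor, was at 57.1, 39.9, 49.2, 27.1 and 61.4 CPM in old WT and at 77.2, 29.4, 71.2, 59.5 and 113 CPM in old KO, with 3 old KO livers above the old WT range. Its log2 fold change was 0.58 with an interval of -0.25 to 1.40 (edgeR adjusted p = 0.614).

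Dnaja1 averaged 154 ± 33.0 CPM in old WT and 190 ± 35.2 in old KO (SD, n = 5 each), a log2 difference of 0.30 with an interval of -0.09 to 0.69. Hsp90aa1 averaged 107 ± 31.0 and 115.5 ± 35.2 CPM, a log2 difference of 0.11 with an interval of -0.41 to 0.64. Hspb1 averaged 6.26 ± 1.38 and 7.79 ± 1.96 CPM, a log2 difference of 0.31 with an interval of -0.22 to 0.84. The most tightly bounded of the 9 genes were the co-chaperonin and the factor itself. Hspe1 averaged 67.1 ± 7.50 and 68.4 ± 3.42 CPM, a log2 difference of 0.03 with an interval of -0.17 to 0.23, and its sign turned when counts were scaled by library total alone. Hsf1 averaged 12.2 ± 1.15 and 13.5 ± 0.844 CPM, a log2 difference of 0.15 with an interval of -0.09 to 0.39. Single libraries moved several of these values. Without old KO 6 the log2 difference was 0.34 for Hsph1, 0.33 for Dnajb1, 0.18 for Hspb1 and -0.08 for Hsp90aa1. Without old WT 7 it was 0.18 for Dnaja1, 0.19 for Hspb1 and 0.0018 for Hsp90aa1, and without old WT 10 it was 0.30 for Hsp90aa1. None was called in any of these fits.

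**Figure D2:**
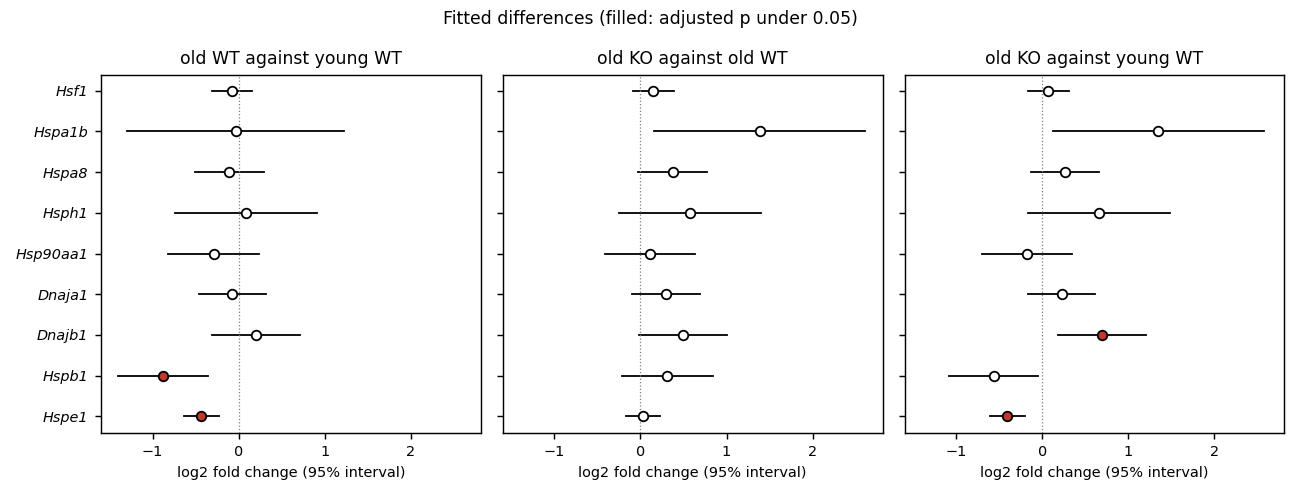
Fitted log2 fold change (horizontal axes) of the 9 tested genes with its 95% interval in the 3 comparisons, filled where the edgeR adjusted p was under 0.05. Hspb1 and Hspe1 are filled for age, no gene is filled for genotype although all 9 points lie above 0, and Dnajb1 and Hspe1 are filled for old KO against young WT.

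Old KO was also set beside young WT, where both age and genotype differ and where the libraries are shared with the other 2 comparisons. Here 2 of 9 genes were called, beside 23.3% of all tested genes. Hspe1 was lower in old KO, at 67.7, 63.6, 71.3, 67.4 and 72.1 CPM in old KO 1, 2, 4, 5 and 6, and every one of these lay below every young WT value. Its log2 fold change was -0.41 with an edgeR adjusted p of 0.00671, and the exact permutation p was 0.00794, the smallest that 5 against 5 animals can give.

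Dnajb1 was higher in old KO than in young WT, where it was at 12.4, 13.0, 13.7, 18.3 and 29.8 CPM. Only young WT 6 reached the old KO range, above 3 of its 5 values. The log2 fold change was 0.70 with an SE of 0.242, the edgeR adjusted p was 0.0479 and the exact permutation p was 0.0476. This call sits at the threshold and was held in 3 of 15 fits that left out 1 library, with adjusted p from 0.00334 to 0.122. Hspa1b gave 1.35 (edgeR adjusted p = 0.102), Hsph1 gave 0.66 (0.237) and Hspb1 gave -0.57 (0.106). With 1 library left out, Hspa1b was called in 2 of 15 fits and Hsph1 in 1 of 15. The fit without young WT 6 called both, but that liver was the highest young one for both genes. Leaving it out had to lower the young mean, so these calls are no support for a difference.

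Most of the chaperone genes differed widely between animals of the same group, and the same animals stood high or low for many of them. Young WT 6 was the highest of its group for 7 of the 9 tested genes, against 27.2% of all tested genes, and old KO 6 was the highest for 9 of 9, against 25.8%. Old WT 7 was the lowest of its group for 7 of 9, against 26.8%, and old KO 2 was the lowest for 7 of 9, against 16.8%. Young WT 6 and old KO 6 were also the 2 shallowest libraries. The hepatocyte marker sum was 104000 CPM in young WT 6, below the other young WT livers (149300 to 159500), and 163300 CPM in old WT 7, above the other old WT livers (112400 to 125600). Old KO 6 (139300 CPM) and old KO 2 (148600 CPM) lay inside the old KO range. The 8 muscle markers, 2 of which were tested, summed to 26.5 CPM in old KO 6 and to between 1.19 and 5.43 CPM in the other 14 libraries. The part of depth and of these markers in the chaperone levels was not tested. Reads of the 10 genes together made up 0.142% of young WT 6 and 0.131% of old KO 6, and 0.0606% of old WT 7 and 0.0667% of old KO 2.

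Hsph1 shows the width of these differences: it was at 27.2, 23.0, 25.8, 49.2 and 97.4 CPM in young WT 1, 2, 3, 4 and 6, a ratio of 4.23 between animals of a group of the same age and genotype. The ratio of highest to lowest animal was 7.01 in young WT, 5.99 in old WT and 9.42 in old KO for Hspa1b. For Hsf1 it was 1.48, 1.24 and 1.18, and for Hspe1 it was 1.43, 1.35 and 1.13. Hspa1b and Hsph1 thus spread more widely among like animals than Hsf1 and Hspe1 did.

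The SD of log2 CPM within groups was 1.07 for Hspa1b, 0.71 for Hsph1, 0.44 for Hspb1, 0.43 for Hsp90aa1, 0.42 for Dnajb1, 0.33 for Hspa8 and 0.33 for Dnaja1. The median over all tested genes was 0.23. Hsf1 at 0.17 and Hspe1 at 0.15 were below it. In young WT 6, where Hspa8, Hsph1, Hsp90aa1, Dnaja1, Dnajb1 and Hspa1b were highest, Hsf1 was the lowest of its group.

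**Figure D3:**
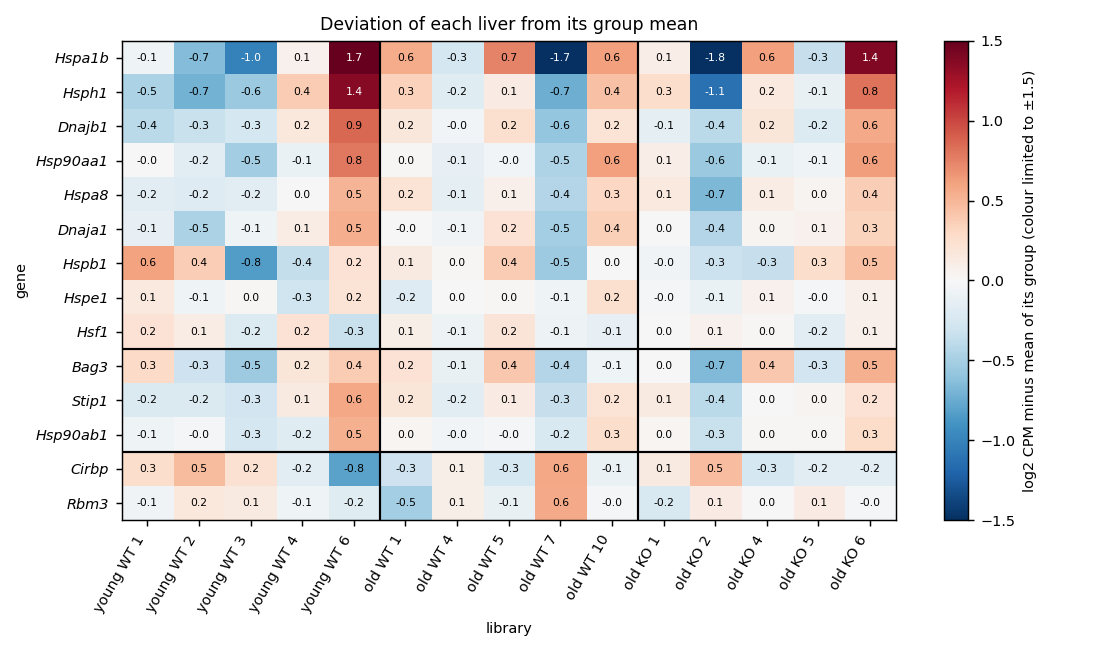
Deviation of each library (columns) from the mean of its group in log2 CPM for 9 tested genes, for Bag3, Stip1 and Hsp90ab1, and for Cirbp and Rbm3 (rows), red above and blue below the group mean. Most chaperone rows are red in young WT 6 and old KO 6 and blue in old WT 7 and old KO 2, the row of Hsf1 is pale, and the row of Cirbp is blue in young WT 6 and red in old WT 7 and old KO 2.

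Cirbp and Rbm3 encode RNA-binding proteins known to rise in the cold and to be low in heat. Cirbp was at 38.8, 44.7, 37.8, 28.7 and 18.5 CPM in young WT 1, 2, 3, 4 and 6, at 18.1, 23.8, 18.7, 33.7 and 20.9 CPM in old WT 1, 4, 5, 7 and 10, and at 20.8, 26.3, 15.9, 16.9 and 16.9 CPM in old KO 1, 2, 4, 5 and 6. It was thus lowest in young WT 6, and highest in old WT 7 and old KO 2, the libraries at the opposite end for most chaperone genes. Such positions were common: 28.6% of all tested genes were lowest of their group in young WT 6. In old WT 7 27.0% were highest of their group, and in old KO 2 16.5%. Rbm3 was likewise lowest of its group in young WT 6 (37.9 CPM) and highest in old WT 7 (47.8 CPM) and old KO 2 (34.9 CPM, with old KO 5 at 34.8 CPM). Old KO 6, at the top for the chaperone genes, was not the lowest of its group for Cirbp. Nor was it for Rbm3, at 31.65 CPM against 27.45 CPM in old KO 1. The part of temperature in these levels was not tested. Between groups, Cirbp gave -0.55 for age (edgeR adjusted p = 0.0896), -0.25 for genotype (0.733) and -0.80 for old KO against young WT (0.0169). Rbm3 gave -0.38 (0.0820), -0.04 (0.952) and -0.42 (0.0490) in the same order.

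The genes whose pattern over the 15 libraries was most like that of a chaperone gene were sought outside the 10 for 5 of them, and 4 of the 15 found encode chaperones or their partners. Likeness was the root mean square difference of centered log2 CPM over 12116 candidate genes, and a small value means a like pattern. Nearest to Hspa8 among these candidates was Stip1 (0.14, against a median of 0.41 over the candidates), which encodes HOP, the adaptor between HSP70 and HSP90, followed by Naa16 (0.14) and Prdm15 (0.16). Within the 10, Dnaja1 was nearer to Hspa8 (0.1315) than any candidate. Nearest to Hsp90aa1 were Hsp90ab1 (0.20, median 0.46) and Ahsa1 (0.22), the activator of the HSP90 ATPase, followed by the malic enzyme gene Me1 (0.23). How far reads shared between Hsp90aa1 and Hsp90ab1 enter this likeness was not tested.

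Nearest to Hspa1b among the candidates was Bag3 (0.73, median 1.16), which encodes an HSP70 nucleotide exchange factor, followed by Gm17236 (0.74) and Cys1 (0.77), and none of these was close. Within the 10, Hsph1 (0.54) and Dnajb1 (0.71) were nearer to Hspa1b than Bag3. Bag3 averaged 29.3 ± 7.69 CPM in young WT, 41.0 ± 9.12 in old WT and 58.3 ± 19.0 in old KO. It gave 0.49 for age (edgeR adjusted p = 0.147), 0.51 for genotype (0.399) and 0.99 for old KO against young WT (0.00599). Nearest to Hspb1 were Foxa1 (0.27, median 0.56), Zfp691 (0.28) and Dph2 (0.31), of which Foxa1 encodes a liver transcription factor. Nearest to Hsf1 were Raver1 (0.088, median 0.28), Gpaa1 (0.090) and Rnf25 (0.092), all with flat levels, and Gpaa1 lies 142527 bases from Hsf1 on chromosome 15.

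Beyond the 10 genes, the folding machinery was read from 10 lists holding 109 genes, of which 102 were tested. With age 4 were called higher and 12 lower, 16 in all, beside 18.8% of all tested genes called, with a median log2 fold change of -0.08 against 0.01 over all genes. Leaving out 1 library gave 11 to 27 called, the highest without young WT 6, where 22.8% of all genes were called. For genotype edgeR called 0 of 102, with 14 at an unadjusted p under 0.05, and DESeq2 called 0; 83 of the 102 were above 0, against 50.2% of all tested genes, and the median was 0.09 against 0.00080. With 1 library left out, 75 to 85 were above 0. In old KO against young WT 16 were called higher and 12 lower, beside 23.3% of all tested genes called.

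The cytosolic chaperonin TRiC folds actin and tubulin. Of its genes and those of its prefoldin partners, 4 of 14 were called lower with age. Of all 14258 tested genes, 1270 were called lower and 18.8% were called either way. Among the 4, Cct6a gave a log2 fold change of -0.44 (edgeR adjusted p = 0.00435), Cct3 gave -0.48 (0.00638) and Cct7 gave -0.30 (0.0148). Of the mitochondrial chaperones and proteases, 3 of 16 genes were called lower. These were Afg3l2, a protease subunit, at -0.32 (0.00620), Grpel1, the exchange factor of mitochondrial HSP70, at -0.43 (0.00690), and Hspa9, mitochondrial HSP70 itself, at -0.28 (0.0231). For genotype these 6 genes had log2 differences from -0.04 to 0.07.

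The counts called with age that follow also stand beside 18.8% of all tested genes called either way (1415 of 14258 higher and 1270 lower). Of the other cytosolic J-proteins, 3 of 17 genes were called lower, namely Dnaja4 at -0.66 (edgeR adjusted p = 0.0160), Dnajc8 at -0.34 (0.0156) and Dnajb6 at -0.28 (0.0262). Of HSP90 and its co-chaperones, 3 of 18 genes were called, in both directions. The immunophilin gene Fkbp4 rose by 0.50 (0.0396) and the phosphatase gene Ppp5c by 0.32 (0.00967), while Unc45a, a chaperone of myosin, gave -0.65 (0.0180). Of the BAG exchange factors of HSP70, Bag1 rose by 0.22 (0.0277) and Bag5 gave -0.39 (0.0105). Among the other small heat shock proteins, 4 of 9 were tested and Cryab, the alpha B crystallin gene, rose by 0.67 (0.0191), the opposite direction to Hspb1. HSF and HSF regulators, other HSP70 and HSP110 genes, and the HSP70 and HSP90 machinery of the endoplasmic reticulum had 0 genes called by edgeR with age, with 3 of 7, 0 of 8 and 0 of 10 at an unadjusted p under 0.05.

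The list of HSF1 target genes outside the 10 held 16 genes, some of which also stand in the lists above. Hsbp1 is in it and also in the list of HSF and HSF regulators. With age 2 were called, both higher (Fkbp4 and Cryab), and the median was 0.10. Of all 14258 tested genes, 1415 were called higher with age and 18.8% either way. For genotype 0 were called, 3 had an unadjusted p under 0.05, 14 of 16 were above 0 (12 to 16 with 1 library left out, 12 without old KO 6 and 12 without old WT 7) and the median was 0.22. Against young WT, 6 of 16 were called higher in old KO and 0 lower, with a median of 0.33, beside 1704 of 14258 genes called higher and 1615 lower. Hsbp1 is among these 6, with a log2 fold change of 0.28 (edgeR adjusted p = 0.0287). Leaving out 1 library gave 3 (without young WT 1) to 9 called higher (without young WT 6). For genotype the endoplasmic reticulum machinery was above 0 in 10 of 10 genes (9 to 10 with 1 library left out), with a median of 0.24 and 2 at an unadjusted p under 0.05. Of all tested genes, 50.2% were above 0 for genotype. Genes of 1 list can vary together between animals, so these directions are not separate observations.

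**Figure D4:**
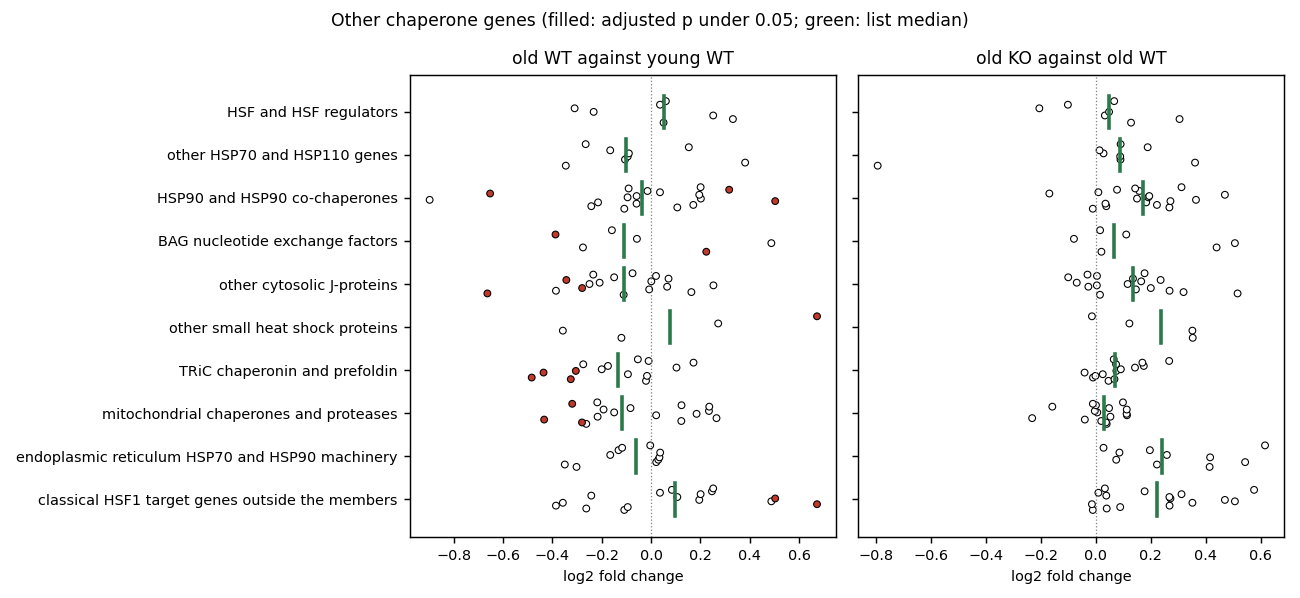
Log2 fold change (horizontal axes) of each tested gene in the 10 lists of other chaperone genes for age (left) and genotype (right), filled where the edgeR adjusted p was under 0.05, with the list median as a green bar. For age 16 genes are filled, on both sides of 0, and for genotype none is filled while most points lie to the right of 0.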

How the data were processed

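Total RNA of whole liver was made into stranded poly(A) libraries and sequenced as single-end reads of 50 bases. The authors mapped reads to mm9 with TopHat (TopHat2 2.0.11 in the submitters' processing notes) and obtained gene counts from HTSeq. The deposited counts are raw, neither normalized nor pooled. The annotation and strand setting of the counting are not given in the sources used here. All 15 columns matched 1 sample title each.

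Counts were scaled by TMM and filtered with filterByExpr in edgeR 4.0.16 (R 4.3.3). A quasi-likelihood model was fitted to all 15 libraries without covariates, and 3 contrasts were adjusted by Benjamini-Hochberg over 14258 genes at a threshold of 0.05. Adjusted p-values in the text are from this test unless another tool is named. The authors' methods name DESeq2, which was run as an alternative (1.42.0), as was limma voom (3.58.1). Exact permutation tests used log2(CPM + 0.1). The edgeR p-values set a group difference against the spread between animals. That spread was estimated over all 3 groups, with information shared between genes. Intervals are 95% intervals of the fit. On simulated counts for genotype (14133 genes) the test recovered 82.8% of 2-fold and 91.8% of 4-fold changes, with a false share of 4.44%. These shares are over the changed genes of the simulation together, with none for the chaperone genes alone. The SD of log2 CPM within groups was 1.07 for Hspa1b and 0.71 for Hsph1, against a median of 0.23 over all tested genes. How often the test would recover such changes in genes that spread this widely was not tested.

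Genes, positions and exon lengths came from GENCODE M1 on NCBIM37, and promoters from RefSeq GRCm38.p6. Exon length was that of all annotated exons merged. The 10 genes and all lists were chosen with earlier results of these data known, and the lists were written from general knowledge. Named beyond the 10 were Rps6kb1, Hspd1, Hsp90ab1, Hsf2, Cirbp and Rbm3. Up to 3 called genes per list and comparison were named by p-value, with the 3 genes nearest in pattern to each of 5 of the 10. Jchain, Gm20481 and Fos are named as well.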

Additional observations from a re-analysis of the deposited data

Results flagged for a closer look

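In 2 of 30 groups of 5 values examined, 10 genes in 3 groups, the highest animal stood farther from the next than Dixon's critical value of 0.71 of the group's range allows. Chance alone gives such a gap in about 5% of groups. Both were in young WT 6. Hspa1b was at 4.57 CPM there, with the next young WT liver at 1.45 CPM and a gap of 0.797 of the range. Hspa8 was at 625 CPM, with the next at 440.3 CPM and a gap of 0.762 of the range.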

How the results depend on the processing

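Every tested gene of the 10 but Hspa1b had over 100 counts in each library, and Hspa1b had 11 to 199. With age, Hspb1 kept its call under 8 of 8 alternatives and Hspe1 under 7 of 8. No gene was called for genotype under any alternative or any left-out library. In old KO against young WT (2 called), 1 gene was called with library totals as the only scaling, with no filter and with the 10 libraries of the comparison alone, since Dnajb1 was lost (adjusted p 0.0738, 0.0506 and 0.0681).

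Leaving out 1 library gave 1 to 2 called for age and 1 to 4 for old KO against young WT. It also moved across 0 the age values of Hsph1 (-0.0842 to 0.59), Hspa1b (-0.24 to 0.65), Hspa8 (-0.19 to 0.0524) and Dnaja1 (-0.18 to 0.0909), the genotype values of Hspe1 (-0.0193 to 0.0938) and Hsp90aa1 (-0.0757 to 0.30), and for old KO against young WT those of Hsf1 (-0.0012 to 0.12) and Hsp90aa1 (-0.37 to 0.0760). None of these was called. The age value of Hspa1b was 0.13 with limma voom and 0.0209 with the counts of Hspa1a and Hspa1b summed, and the genotype value of Hspe1 was -0.0359 with library totals as the only scaling. The cause was not tested. A fit without young WT 6, old WT 7 and old KO 6 together was run after seeing the data. Its values and calls are not given, because these libraries had been noticed partly by their levels of the 10 genes.

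Groups share replicate numbers in the labels, but nothing says that a number pairs animals. Deviations of the 9 same-numbered pairs correlated at -0.15 to 0.08, and 0 of 12 libraries correlated best with their own number. With the replicate number as a block, 1 gene was called for age (Hspb1 at -0.88, adjusted p = 0.0490), Hspe1 losing its call at -0.48 (adjusted p = 0.0673), and 4 for old KO against young WT, and the age value of Hspa1b was 0.23. The exact permutation tests with a pseudocount of 1 CPM kept every one of 27 sides of the threshold.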

Other observations

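Immediate early genes, which are induced within minutes of many stimuli, were counted as a separate list. With age 3 of 16 were called higher (0 to 3 with 1 library left out), beside 18.8% of all tested genes called either way (1415 of 14258 higher). For genotype 15 of the 16 immediate early genes were below 0 with a median of -0.58, against 14 of 16 without old WT 7. Their summed level was 576 CPM in old WT 7, 188 to 247 CPM in the other old WT livers and 155 to 258.5 CPM in old KO livers, so the groups overlapped. Fos, named after its values were seen, averaged 1.98 CPM in young WT, 3.54 in old WT and 1.27 in old KO, and its genotype difference was -1.47 (edgeR adjusted p = 0.0337). The call was lost without old WT 7 (-1.17, edgeR adjusted p = 0.0590), and in 7 of 15 fits without 1 library in all. Of 18 clock genes, 4 were called higher and 2 lower with age, and 0 were called for genotype by edgeR, with 1 at an unadjusted p under 0.05. Of all tested genes, 18.8% were called with age and 0.533% for genotype, and 50.2% were above 0 for genotype. Red blood cell genes were above 0 for genotype in 6 of 6 tested genes, with 4 at an unadjusted p under 0.05 and 0 called by edgeR. Their summed level was 79.8 to 165 CPM in old WT and 107 to 397 CPM in old KO.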
